A study of Homo sapiens with 31 samples.

Results

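Ribosome footprints of naive HEK293 T-REx cells were compared after 30 min of PP242 and after DMSO, using 4 of the 31 libraries of the series. HEK293 T-REx is a human embryonic kidney line built so that a transgene can be induced, and the libraries labelled Naive carry no knockout. The 4 libraries were chosen by their labels: DMSO replicates 1 and 2, 1 library at 1 µM PP242 and 1 library at 10 µM PP242. The 8 profiling libraries labelled EIF4A1 KO or EIF4A2 KO, treated alike and in the same numbers, entered the fit to estimate the spread and served for comparison. Each knockout is labelled as a single genotype with no clone named. The labels do not say whether the DMSO replicates came from separate cultures, so p-values measure the spread between these libraries, which may be technical. In the fit for either dose, the 1 µM and 10 µM libraries of a genotype formed 1 group. The spread in that fit, also used for the differences between genotypes, therefore holds the difference between doses as well.

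PP242 inhibits the mTOR kinase. In the mTORC1 complex, mTOR drives translation initiation by phosphorylating the 4E-BP proteins, which otherwise keep the cap-binding protein eIF4E from joining eIF4G and the helicase eIF4A1. mRNAs that begin with a 5′ terminal oligopyrimidine (TOP) stretch, chiefly those for ribosomal proteins and elongation factors, are known to depend most on mTORC1, and LARP1 binds their cap and TOP stretch when mTORC1 is off. Ribosome profiling sequences the fragments that ribosomes shield from RNase I, so the counts on a coding region follow the ribosomes on it. No RNA-seq of PP242-treated cells was analysed here, so a change in footprints holds any change in RNA.

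The counts were given per Ensembl transcript and not paired with gene names, and the reference tables hold no transcript IDs. Which transcripts are TOP mRNAs was therefore not analysed here, nor were the markers of the cell line or the level of the knocked-out genes, and transcripts are described by ID, length and level. Rows with equal counts in all 31 files were collapsed, which left 77343 distinct transcripts, of which 54938 had enough counts to be tested. Overlapping transcripts count the same reads, so groups are described over 1 transcript per locus, 20269 of those tested. The reduction is approximate: some transcripts that appear to overlap remain, so group counts and shares can hold a read more than once. The 4 naive libraries held 7933708 to 19075559 counts over distinct transcripts, with the 10 µM library the smallest. A level is a share of its own library, so a shift common to all transcripts does not appear in these values.

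PP242 lowered the footprints of some transcripts strongly and raised those of others slightly. Of the 54938 transcripts, 6342 (11.5%) changed with PP242 at either dose (edgeR quasi-likelihood fit, threshold of 0.05 on the adjusted p), 3689 lower (6.71%) and 2653 higher (4.83%). Over 1 transcript per locus 2053 of 20269 changed (10.1%), of which 1181 fell (5.83%) and 872 rose (4.3%). The fallen transcripts had a median log2 change of -0.59 and reached -3.62, and 279 of them fell by more than 1 log2 unit. The risen transcripts had a median of 0.39 and reached 2.14, and 34 of them rose by more than 1 unit, a count that was 19 without the 1 µM library and 3 with the DESeq2 Wald test. That test called 3662 of all transcripts and 170 falls of more than 1 unit, and a slope over a dose score called 889 of all transcripts. The median over all tested was 0.014. In 1179 of the 1181 fallen transcripts both PP242 libraries lay below both DMSO libraries, and in 871 of the 872 risen ones both lay above. The choice by this contrast favours such a split. Of all 20269 tested over 1 transcript per locus, 24.2% lay below in this way and 25.5% above. The number of calls depended on single libraries: it was 3505 without DMSO replicate 2 and 2854 without the 1 µM library. Rises were fewer in each fit without a naive library, 1679 and 1101 without DMSO replicates 1 and 2, 1002 without the 1 µM library and 1734 without the 10 µM library. Falls were 1852 without the 1 µM library and 2404 without DMSO replicate 2, and outnumbered rises in each of these fits.

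**Figure D1:**
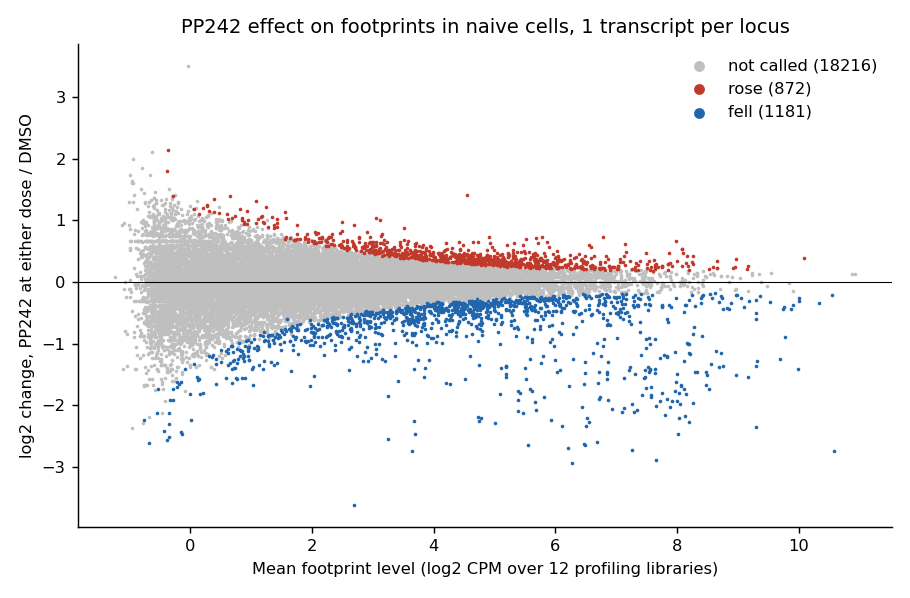
Log2 change of footprints with PP242 at either dose against DMSO in naive cells (vertical) against the mean level in log2 CPM over the 12 profiling libraries (horizontal), 1 point per transcript and 1 transcript per locus. The 1181 fallen transcripts (blue) reach below -3. The 872 risen ones (red) reach 2.14, within the range of the uncalled points (grey), which reach 3.51.

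Level set which changes could be called. Between log2 CPM (counts scaled to library size) 0 and 2, where a naive library held a median of 24.75 counts per transcript, 2.65% of 7331 transcripts changed, and at 8 or more, with a median of 4956 counts, 64.7% of 156 changed. The log2 ratio of the DMSO replicates had an SD of 0.31 in the first of these classes and 0.079 in the second. The ratio of the PP242 mean to the DMSO mean had an SD of 0.32 and 0.73. The spread of the PP242 effect was thus far wider than that of the replicates among abundant transcripts and similar in size to it among poorly covered ones, though a ratio of means carries less counting error than a ratio of single libraries. Among 2203 transcripts at log2 CPM 5 or more, 1978 (89.8%) stayed within 0.5 log2 units of their DMSO level. In this class 207 lay below -0.5, 136 of them below -1, while 18 lay above 0.5 and 0 above 1. The response of abundant transcripts was therefore lopsided in size: most moved little, a minority fell far, and the rises were small.

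The fallen transcripts made up a large part of all footprints in untreated cells. In the DMSO replicates they held 31.4% and 31.8% of the counts over 1 transcript per locus, against 19.5% at 1 µM and 20.9% at 10 µM. The 279 that fell over 2-fold went from 12.8% and 12.9% to 4.24% and 4.93%. The risen transcripts went from 10.05% and 9.88% to 14.1% at 1 µM and 13.8% at 10 µM. Shares are parts of a whole, so the loss by the fallen transcripts raises all others. The uncalled transcripts went from 58.6% and 58.3% to 66.4% and 65.4%. These shares describe transcripts picked from the same libraries. In the knockouts, which are outside the contrast that chose them, the share of the fallen transcripts also dropped. It was 29.5% and 29.1% in the DMSO libraries of EIF4A2 KO cells and 18.1% and 18.8% at 1 and 10 µM. In EIF4A1 KO cells it was 27.5% and 27.3% in DMSO and 22.0% and 20.8% with PP242. The risen transcripts went from 10.8% and 10.9% to 14.6% and 14.3% in EIF4A2 KO cells. Their change was smaller in EIF4A1 KO cells, from 11.93% and 11.91% to 12.7% and 13.2%. The uncalled transcripts went there from 60.6% and 60.8% to 65.3% and 65.97%.

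**Figure D2:**
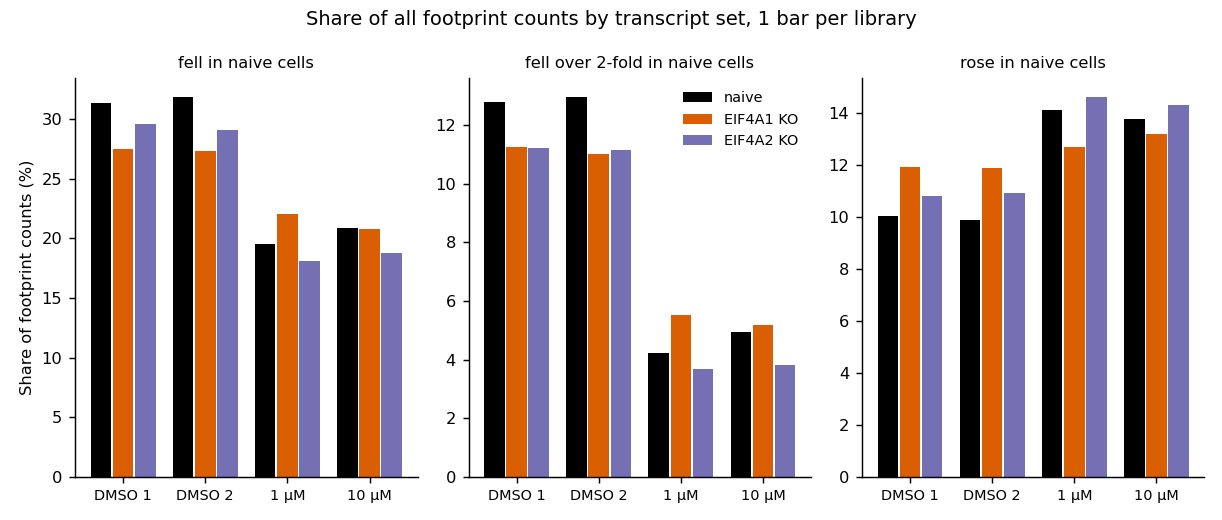
Percentage of footprint counts (vertical, over 1 transcript per locus) held by the transcripts that fell, fell over 2-fold or rose in naive cells, with 1 bar per profiling library. In naive cells the fallen transcripts drop from 31.4% and 31.8% in DMSO to 19.5% and 20.9% with PP242.

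Both doses gave similar changes. Against DMSO, 5195 transcripts (9.46%) changed at 1 µM, 3272 lower and 1923 higher, and 3154 (5.74%) at 10 µM, 2000 lower and 1154 higher. Each dose had 1 library, which was assumed to vary like the DMSO pairs, and without DMSO replicate 2 the count at 1 µM was 3450. The 1181 fallen transcripts had a median of -0.60 at 1 µM and -0.51 at 10 µM relative to the mean of the DMSO libraries, which themselves lay 0.0093 to either side. The 872 risen transcripts had medians of 0.38 and 0.37. The higher dose gave the smaller fall more often: 838 of the 1181 (71.0%) stood higher at 10 µM than at 1 µM, against 50.6% of all tested, and 222 of the 279 (79.6%) that fell over 2-fold. Among tested transcripts at log2 CPM 5 or more the share was 58.2%. DMSO replicate 2 stood above replicate 1 in 56.0% of the fallen transcripts. With 1 library per dose the difference between doses has no replicate check, and the 10 µM library had fewer counts. Both PP242 libraries also entered the choice of these transcripts, and the part of that choice in the order of doses was not tested. In EIF4A1 KO cells the order was reversed, with medians of the 1181 at -0.098 for 1 µM and -0.18 for 10 µM. In EIF4A2 KO cells they were -0.49 and -0.44.

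The response differed with the listed length of the transcript. The files list a length per transcript, whose unit is not stated, and it is used here only to order transcripts. Fallen transcripts had a median length of 217 and those fallen over 2-fold 136, against 619.5 for the risen ones and 241 for all tested. Over all tested levels, the share that fell was 5.37% at a length up to 100, 6.82% up to 200, 7.46% up to 500, 4.28% up to 1000, 2.65% up to 2000 and 1.49% above, against 5.83% of all tested, so it was not highest in the shortest class. The share that rose went from 1.02% in the shortest class to 17.9% in the longest, against 4.3% of all tested, and the medians from -0.035 to 0.13. The shortest class had a median level of 0.65 log2 CPM and the longest 3.97, and level sets which changes can be called. The shares over all tested are therefore no baseline for the abundant transcripts that follow, whose classes are compared with one another. Among the 2203 transcripts at log2 CPM 5 or more the pattern was steeper: 59 of 110 with a length up to 100 fell (53.6%) and 1 rose. From there up to 200, 129 of 320 fell (40.3%) and 21 rose. In the class up to 500, 197 of 822 fell (23.97%) and 82 rose. The balance turned above 500. In the class up to 1000, 71 of 614 fell (11.6%) and 130 rose (21.2%). In the class up to 2000, 18 of 250 fell (7.2%) and 85 rose (34.0%). Over 2000, 1 of 87 fell and 34 rose (39.1%). The class medians were -0.245 (quartiles -1.41 and -0.041) at up to 100, -0.13, -0.031, 0.092 and 0.15 in the classes between, and 0.18 (quartiles 0.053 and 0.29) over 2000. The median log2 ratio of the DMSO replicates stayed between -0.010 and 0.012 in these classes. Falls over 2-fold numbered 33, 57, 39 and 7 in the classes up to a length of 1000, in order of length, and 0 above it.

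**Figure D3:**
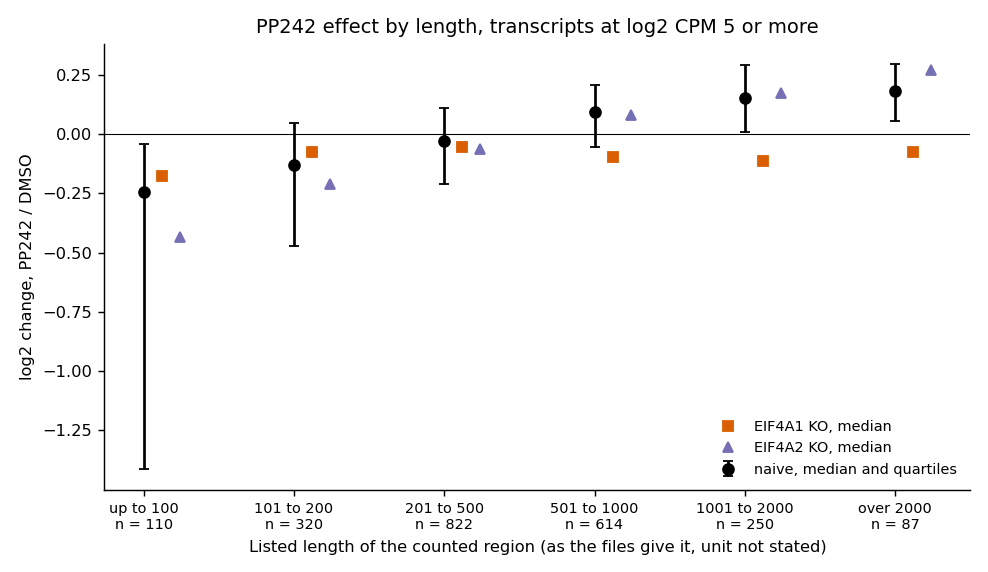
Median log2 change with PP242 (vertical) by listed length (horizontal) for transcripts at log2 CPM 5 or more, 1 per locus. Black points and bars give the naive median and quartiles, squares the EIF4A1 KO median and triangles the EIF4A2 KO median; the naive medians run from -0.245 to 0.18, while the EIF4A1 KO medians stay below 0 in all 6 classes.

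The same classes were read in the knockouts. In EIF4A2 KO cells the class medians ran from -0.43 at up to 100 to 0.27 over 2000. In EIF4A1 KO cells they were -0.18 at up to 100, -0.076 up to 200, -0.053 up to 500, -0.099 up to 1000, -0.11 up to 2000 and -0.076 over 2000, so no class had a positive median. The difference between EIF4A1 KO and naive cells was tested per transcript. It was called lower in 27 of the 87 transcripts over 2000 (31.03%) and 86 of the 250 in the class up to 2000 (34.4%), against 2.56% of all tested over 1 transcript per locus and 13.0% of those at log2 CPM 5 or more. It was called higher in 90 of the 320 in the class up to 200 (28.1%), against 3.68% of all tested and 11.7% of those at log2 CPM 5 or more. In the longer classes the difference was also called higher in 6 transcripts of the class up to 2000 and in 1 over 2000. These counts cover all transcripts of a class, risen in naive cells or not.

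The 15 largest falls and 15 largest rises were taken among called transcripts with a mean of at least 50 counts in the naive libraries and both PP242 libraries beyond both DMSO libraries. The falls ran from -3.62 to -2.35 (SE 0.070 to 0.24, largest edgeR adjusted p 1.2e-18), and the rises from 0.75 to 1.41 (SE 0.12 to 0.23, largest edgeR adjusted p 0.0144). The most abundant of these falls, with a listed length of 453, stood at 2802 and 2890 CPM in DMSO, 368.1 at 1 µM and 484.5 at 10 µM. Both PP242 libraries lay far below the DMSO libraries, with a log2 change of -2.74 (SE 0.073, edgeR adjusted p 8.02e-38). In 14 of the 15 largest falls the change was smaller at 10 µM than at 1 µM. The rises were among poorly covered transcripts, with a median of 4.31 CPM in DMSO replicate 1 against 171.5 CPM for the falls.

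The 2 largest falls and the 2 largest rises are given by ID. ENST00000484279.5, with a listed length of 37, had 236 and 258 counts in the DMSO libraries, 16 at 1 µM and 9 at 10 µM. This was 15.4 and 14.6 CPM against 1.29 and 1.10 CPM, a log2 change of -3.62 (SE 0.24, edgeR adjusted p 2.04e-19). ENST00000361436.10, with a listed length of 156, stood at 147.6 and 148.3 CPM in DMSO, 17.4 at 1 µM and 21.8 at 10 µM. Its log2 change was -2.94 (SE 0.089, edgeR adjusted p 3.1e-35). ENST00000325680.12, with a listed length of 2137, had DMSO levels of 11.55 and 10.2 CPM and stood at 26.2 CPM with 1 µM and 32.2 CPM with 10 µM. Its log2 change was 1.41 (SE 0.12, edgeR adjusted p 2.86e-15). ENST00000324109.9, with a listed length of 1568, had DMSO levels of 4.76 and 5.15 CPM and stood at 10.98 CPM with 1 µM and 9.03 CPM with 10 µM, a log2 change of 1.03 (SE 0.16, edgeR adjusted p 2.71e-06). Their reads may also lie on overlapping transcripts or on near-identical copies elsewhere, which the counts do not separate.

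**Figure D4:**
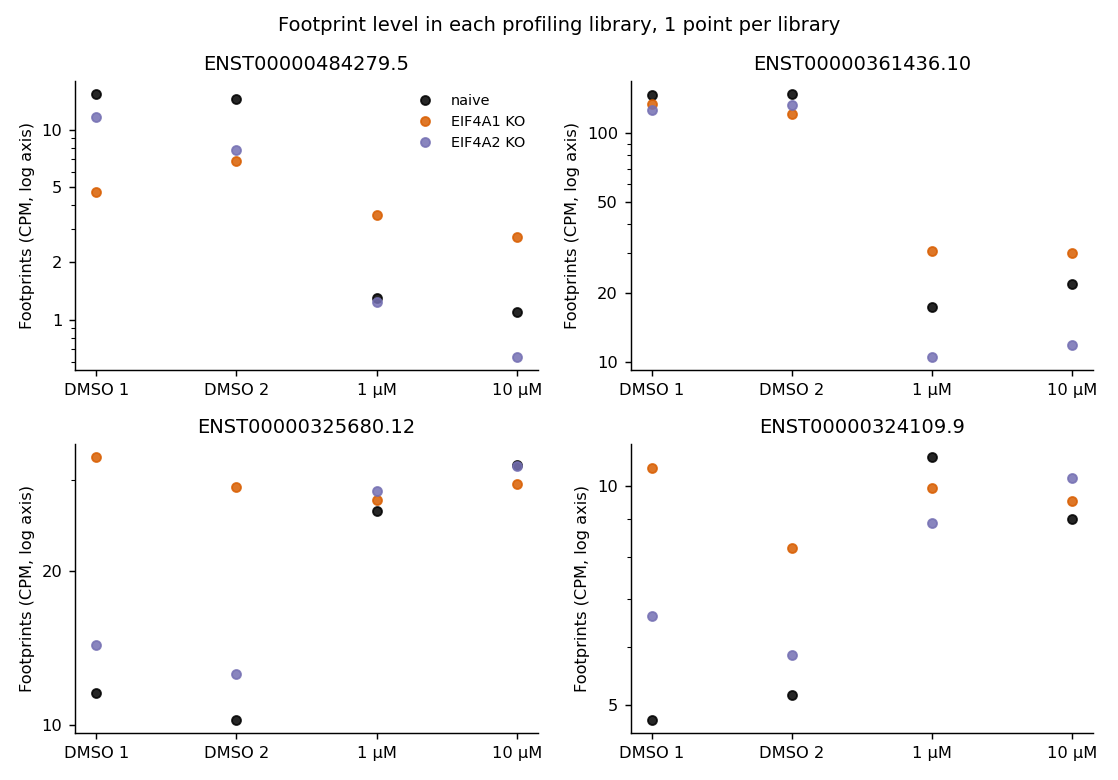
Footprint level in CPM (vertical, log axis) of the 2 transcripts with the largest falls and the 2 with the largest rises, 1 point per profiling library, by treatment (horizontal) and genotype (colour). In EIF4A1 KO cells the DMSO points of ENST00000325680.12, at 33.4 and 29.1 CPM, lie at the level that naive cells reach with PP242.

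The 2 rising transcripts did not rise in EIF4A1 KO cells, where they were already high. ENST00000325680.12 stood there at 33.4 and 29.1 CPM in DMSO and at 27.5 and 29.55 with 1 and 10 µM PP242, a log2 change of -0.13 (SE 0.11, edgeR adjusted p 0.558). Its RNA differed little between the genotypes, with 12 and 11.15 CPM in naive and 11.2 and 10.9 CPM in EIF4A1 KO RNA-seq libraries. ENST00000324109.9 stood at 10.6 and 8.21 CPM in DMSO and at 9.94 and 9.55 with PP242. In EIF4A2 KO cells both rose, by 1.18 (SE 0.11, edgeR adjusted p 1.22e-13) and 0.63 (SE 0.15, edgeR adjusted p 0.00204). The 2 falling transcripts fell in both knockouts. For ENST00000361436.10 the log2 change was -2.08 (SE 0.082) in EIF4A1 KO cells and reached -3.53 (SE 0.091) with EIF4A2 knocked out. ENST00000484279.5, whose DMSO level in EIF4A1 KO cells was 4.73 and 6.82 CPM, changed there by -0.91 (SE 0.24, edgeR adjusted p 0.0118), and by -3.38 (SE 0.25) in EIF4A2 KO cells.

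The naive-called transcripts were then followed as groups in the knockouts, whose libraries entered the choice only through the filter, the scaling and the shared estimate of spread. In EIF4A2 KO cells 815 of the 1181 fallen transcripts fell (69.0%) and 1 rose, where 7.36% of all tested and 27.3% of those at log2 CPM 5 or more fell. Of the 872 risen transcripts, 412 rose (47.2%) and 1 fell, where 5.1% of all tested and 17.9% of those at log2 CPM 5 or more rose. The medians were -0.49 and 0.27. In EIF4A1 KO cells 350 of the 1181 fell (29.6%) and 59 rose (5.0%), where 3.63% of all tested fell and 2.5% rose, and 20.25% and 5.81% of those at log2 CPM 5 or more. Of the 872 risen transcripts 40 rose there (4.59%) and 36 fell (4.13%), against the same shares. The medians were -0.15 and 0.0064. The transcripts that fell over 2-fold kept a clearer fall in EIF4A1 KO cells, with a median of -0.87 and 161 of 279 called lower, against -1.40 and 199 of 279 in EIF4A2 KO cells.

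**Figure D5:**
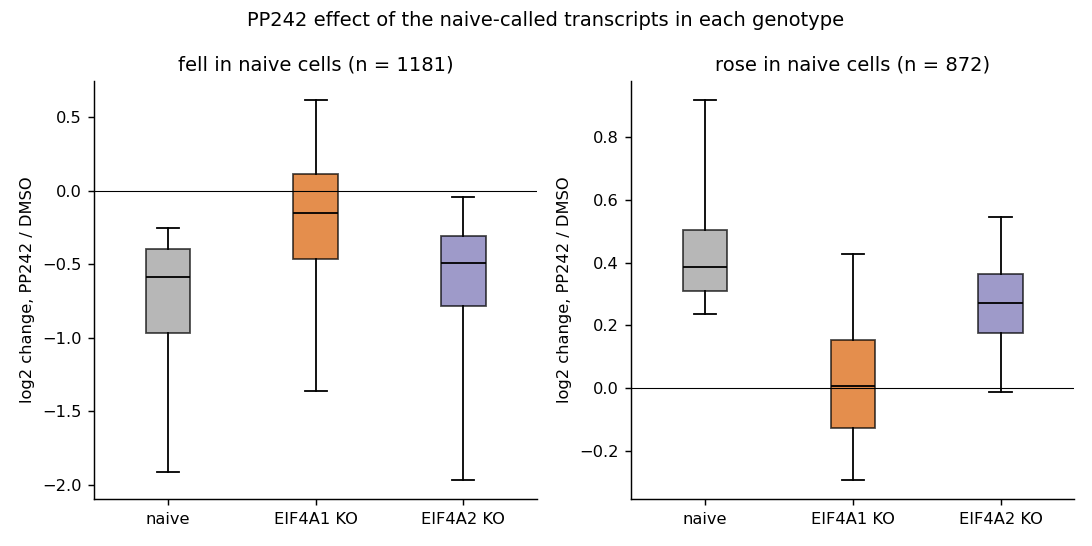
Log2 change with PP242 (vertical) in naive, EIF4A1 KO and EIF4A2 KO cells of the transcripts that fell (left) or rose (right) in naive cells. Boxes give the quartiles and median and whiskers the 5th and 95th percentiles over transcripts; the naive boxes hold the values that chose the transcripts, and the risen ones have a median of 0.0064 in EIF4A1 KO cells, against 0.27 where EIF4A2 is knocked out.

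The difference of the PP242 effect itself was tested over all transcripts. Between EIF4A1 KO and naive cells 3684 of 54938 were called (6.71%), 2196 higher (4.0%) and 1488 lower (2.71%) in the knockout. Over 1 transcript per locus, 456 of the 1181 fallen transcripts were called higher in EIF4A1 KO and 2 lower, and 291 of the 872 risen ones were called lower and 0 higher. The naive libraries enter both the choice and this test, which enlarges these counts. Between EIF4A2 KO and naive cells 56 were called (0.102%), 2 higher and 54 lower, and 3681 had an unadjusted p under 0.05. The first count was 2044 without naive DMSO replicate 2, 2350 without the naive 1 µM library, 1900 without EIF4A1 KO DMSO replicate 1 and 2108 without the EIF4A1 KO 1 µM library. The second count was 15 without naive DMSO replicate 1, 17 without the naive 10 µM library, 114 without the naive 1 µM library, 22 without EIF4A2 KO DMSO replicate 2 and 14 without the EIF4A2 KO 1 µM library.

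In DMSO, the risen transcripts were already set apart in EIF4A1 KO cells. Relative to EIF4A2 KO cells in DMSO, a comparison with no naive library, the risen transcripts had a median log2 difference of 0.18 in each EIF4A1 KO DMSO library, and 69.3% and 71.0% of the 872 stood higher. For the fallen transcripts the medians were -0.10 and -0.12, and for all tested 0.025 and 0.026. Of all tested, 52.3% and 52.4% stood higher. Transcripts at log2 CPM 5 or more had medians of 0.042 in both libraries, and 55.3% and 55.4% of them stood higher. The RNA of the risen transcripts was also higher in EIF4A1 KO than in naive cells, with a median of 0.12 in each of the 2 RNA-seq libraries, against 0.020 and 0.011 for all tested. That of the fallen transcripts was lower, with medians of -0.084 and -0.082. Transcripts at log2 CPM 5 or more had RNA medians of -0.015 and -0.013. Length differs between the groups as given above, and its part in these differences was not tested.

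In naive cells the fallen and risen transcripts had similar RNA levels. Their median RNA-seq levels were 4.39 and 4.30 log2 CPM in replicate 1 and 4.396 and 4.29 in replicate 2, against 2.29 and 2.30 for all tested. Footprints per RNA in EIF4A1 KO cells, from libraries outside the contrast that chose the transcripts, had medians of 0.11 and 0.12 log2 units for the fallen and 0.18 and 0.17 for the risen transcripts. The value was -0.18 and -0.26 for those fallen over 2-fold, against -0.046 and -0.037 for all tested. The class at log2 CPM 5 or more had medians of 0.485 and 0.494, above both groups, but it was formed on footprint levels, which enter this ratio. Calls depended on footprint level too, and the part of level in these values was not tested.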

How the data were processed

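Ribosome profiling libraries were made from RNase I-treated lysates by pelleting ribosomes and turning size-selected, rRNA-depleted fragments into cDNA, per the labels' protocols. The submitters' processing notes name CASAVA 1.8, STAR 2.7.0a and hg38, with no role given; the counting tool and annotation release are not given in the sources used here. The authors deposited 1 file per library with raw counts per transcript, as whole numbers with no scaling, and a length for 100283 of 227264 transcripts. That length is another measure the authors deposited, with its unit not stated; 313 lengths are below 0 and counts outside these transcripts are 0.

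Rows with equal counts in all 31 files were collapsed (94734 transcripts with a count to 77343). For 1 transcript per locus, transcripts were taken by total count and dropped at a correlation of 0.9 or more (log2 CPM, pseudocount 0.5) with one kept within 10 rows; this is approximate. edgeR 4.0.16 in R 4.3.3 was fitted to the 12 profiling libraries (filterByExpr with minimum count 10 and minimum total 15, TMM, glmQLFit, glmQLFTest, two-sided, Benjamini-Hochberg over all 54938 transcripts), with 6 means for either dose and 9 for each dose, which leave 6 and 3 residual degrees of freedom. The threshold for a call was an adjusted p of 0.05. An SE given here is the absolute log2 change divided by the square root of the F statistic of the edgeR test. The fit was tested on simulated data. CPM of profiling libraries are TMM-scaled over tested transcripts, and those of RNA-seq and pulldown libraries use totals over distinct transcripts. DESeq2 1.42.0 was an alternative. Shares are of counts of overlapping reads, so no counting intervals are given.

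The rule for named transcripts took called ones with a mean of at least 50 counts in the naive libraries and PP242 libraries beyond both DMSO libraries, the 15 largest each way, with 2 each way printed by ID since no table at hand pairs transcripts with genes. For that reason the planned gene lists, cell line markers and scaling to mitochondrially encoded transcripts were not run. The comparison, lists and length and level classes were chosen with earlier results of these data known.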

Additional observations from a re-analysis of the deposited data

Results flagged for a closer look

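Each result below passed a test of whether PP242 acted differently in a knockout than in naive cells. The PP242 effect differed between EIF4A1 KO and naive cells for 3684 transcripts, and between EIF4A2 KO and naive cells for 56, by edgeR's quasi-likelihood test. As EIF4A1 KO minus naive on the log2 scale, it differed by 2.71 (SE 0.37, edgeR adjusted p 5.28e-07) for ENST00000484279.5 and by 0.86 (SE 0.12, edgeR adjusted p 1.62e-06) for ENST00000361436.10, both falling less in the knockout. For ENST00000325680.12 the difference was -1.53 (SE 0.16, edgeR adjusted p 3.82e-10) and for ENST00000324109.9 -0.99 (SE 0.23, edgeR adjusted p 0.00335), both rising in naive cells alone of these 2 genotypes. For the most abundant of the 15 largest falls it was 0.66 (SE 0.097, edgeR adjusted p 2.25e-06). These 5 were chosen for large changes in naive cells, whose values the difference subtracts, so a smaller effect in the knockout is favoured by the choice. In EIF4A2 KO against naive cells none of these 5 passed, the smallest edgeR adjusted p being 0.0586 for ENST00000361436.10, whose difference was -0.59 (SE 0.14). No group had the 4 libraries that a test for an outlying library needs.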

How the results depend on the processing

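No paired analysis was possible because the PP242 libraries carry no replicate number. The 4 named transcripts kept their direction and call under every alternative that gave a value; DESeq2 gave no adjusted p for ENST00000484279.5. With the DESeq2 Wald test the calls fell to 3662 at either dose (1155 over 1 transcript per locus), 1740 at 1 µM, 1322 at 10 µM, and 2029 and 16 for the differences of EIF4A1 KO and EIF4A2 KO from naive cells. Fitting 1 transcript per locus gave, in the same order, 1932, 1632, 972, 1254 and 19 calls, since fewer transcripts were tested. A slope over a dose score of 0, 1 and 2 gave 889 calls (263 over 1 transcript per locus), and no filter on low counts gave 88 for EIF4A2 KO minus naive. Leaving out single libraries gave 2854 to 4827 calls at either dose (906 to 1557 over 1 transcript per locus), 3450 to 5199 at 1 µM, 2200 to 3152 at 10 µM, 1900 to 4040 for EIF4A1 KO minus naive and 14 to 114 for EIF4A2 KO minus naive. Leaving out knockout libraries was chosen after seeing the data. Falls over 2-fold numbered 170 with DESeq2 and 222 to 297 without single libraries, and rises over 2-fold 3 and 19 to 37. The medians of the shortest and longest classes kept their sign, from -0.26 to -0.18 and from 0.16 to 0.21. DESeq2 size factors changed no count by over 1.5 times. Depth limits calls below a log2 CPM of 2, and the EIF4A1 KO DMSO and naive 10 µM libraries were the shallowest.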

Other observations

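The pulldown libraries share no library with the PP242 comparison and describe the same transcripts in other cells. With SBP-eIF4A1, an eIF4A1 carrying a streptavidin-binding peptide, the transcripts fallen over 2-fold in naive cells had median log2 enrichments over input of 0.44 and 0.47 in the 2 pulldown libraries. All fallen transcripts stood at 0.013 and 0.037 and the risen ones at -0.71 and -0.70, against -0.16 and -0.17 for all tested and -0.69 and -0.66 for those at log2 CPM 5 or more. Median footprint levels were 4.72 log2 CPM for those fallen over 2-fold, 4.64 for the risen ones and 5.85 for the class at 5 or more. RNA levels in naive replicate 1 were more spread for those fallen over 2-fold, with quartiles of 1.09 and 8.34 log2 CPM. The risen ones had 3.27 and 5.41. The part of level was not tested. With SBP-eIF4A2 the medians were 0.078 and 0.16 for those fallen over 2-fold and -0.35 and -0.42 for the risen ones, against 0.054 and 0.035 for all tested and -0.56 and -0.60 at log2 CPM 5 or more.

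After control siRNA the order of these groups in the SBP-eIF4A1 pulldown was reversed. The transcripts fallen over 2-fold had medians of -0.60 and -0.64 and the risen ones 0.19 and 0.35. All tested had 0.27 and 0.26, and those at log2 CPM 5 or more -0.50 and -0.48. The enrichment of the transcripts fallen over 2-fold given above was thus not seen in this second pair of pulldown libraries. In the inputs after LARP1 siRNA the transcripts fallen over 2-fold had median changes of -0.25 and -0.13 against control siRNA. Of these 279, 28.7% and 35.1% stood above 0, against 69.8% and 66.95% of all tested and 61.8% and 57.3% at log2 CPM 5 or more. The risen ones had 0.21 and 0.13, against 0.16 and 0.15 for all tested and 0.094 and 0.053 at log2 CPM 5 or more. These are values of groups chosen from the profiling libraries and carry no test.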
